A study of Homo sapiens with 60 samples.

Results

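The genes described are 10 immediate early and cAMP response genes, picked by name from a table of 37334 genes: FOS, FOSL2, JUN, JUNB, EGR1, NR4A1, NR4A2, ATF3, CREM and PER1. All 10 were in the table, and 9 passed the filter on low values. The cells were wild-type SH-SY5Y, a line from a human neuroblastoma that differentiates towards a neuronal state, in a protocol of 18 days with Pb (lead) in the medium from day 5, renewed at each change of medium. Doses were 0, 0.16, 1.26 and 10 µM, and RNA was sequenced at 5 times from day 6 to day 18, every 3 days, with 3 dishes in each of the 20 groups (60 libraries). All cells came from 1 line at passage 39, the 0 µM dishes followed the same differentiation without Pb, and every dish was detached with an enzyme and pelleted before lysis.

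Immediate early genes are transcribed within minutes of a stimulus, without new protein synthesis, and most encode transcription factors. In neurons and neuroblastoma cells they respond to growth factors, depolarisation, calcium and cAMP. Calcium and cAMP act through phosphorylation of CREB, which binds the cAMP response element (CRE), and growth factor signalling acts largely through the serum response factor, which binds the CArG box. FOS and JUN family proteins pair to form the AP-1 factor, EGR1 is a zinc finger factor, NR4A1 and NR4A2 are orphan nuclear receptors, ATF3 and CREM belong to the ATF/CREB family, and PER1 is a repressor of the circadian clock whose promoter responds to cAMP.

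Sequences with known response elements are shown first, because CREs and CArG boxes are the elements through which such genes are known to respond. RefSeq start windows of GRCh38.p14 were available for 9 members, 17 windows in all, and the 250 bases before each start were searched on both strands. The EGR1 window held 2 CArG boxes at positions -105 and -83 from the start, 2 CRE cores (TGACG or its complement CGTCA) at -135 and -66, and 1 EGR site (GCGNGGGCG) at -198, all in capitals. The CREM gene is known for an internal cAMP-inducible promoter that makes the short repressor ICER. One of its internal start windows held TGATGTCA at -74, a CRE with 1 free base (TGACNTCA on either strand), in capitals.
EGR1 (chr5:138465229-138465478, plus strand): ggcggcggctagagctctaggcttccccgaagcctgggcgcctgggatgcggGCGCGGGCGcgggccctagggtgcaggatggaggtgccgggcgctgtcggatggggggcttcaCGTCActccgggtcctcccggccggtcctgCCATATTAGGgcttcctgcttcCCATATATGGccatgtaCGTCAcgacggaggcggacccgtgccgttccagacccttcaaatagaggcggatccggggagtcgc
CREM (chr10:35195600-35195849, plus strand): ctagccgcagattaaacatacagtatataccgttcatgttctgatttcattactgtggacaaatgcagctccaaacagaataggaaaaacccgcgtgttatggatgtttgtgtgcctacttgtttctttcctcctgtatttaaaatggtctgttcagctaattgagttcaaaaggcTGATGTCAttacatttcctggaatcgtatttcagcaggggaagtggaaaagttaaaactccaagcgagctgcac

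Single sites of CREM, JUN, ATF3, FOS, FOSL2 and JUNB are shown with their flanks, with the element in capitals. The windows of NR4A1 and PER1 held none of the elements searched, and NR4A2 had no window. The CREM site is a full CRE (TGACGTCA), at -50 of another start just downstream of the window printed above. JUN and ATF3 each held a CRE with 1 free base, at -67 and -123, and FOS, FOSL2 and JUNB held CRE cores at -64, -66 and -137.
CREM (chr10:35195841-35195870, plus strand): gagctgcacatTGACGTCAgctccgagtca
JUN (chr1:58784096-58784125, minus strand): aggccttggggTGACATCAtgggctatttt
ATF3 (chr1:212565273-212565302, plus strand): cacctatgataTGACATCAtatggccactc
FOS (chr14:75278752-75278780, plus strand): tggttgagcccgTGACGtttacactcatt
FOSL2 (chr2:28392780-28392808, plus strand): ggagtctggggtTGACGtgagtgaatcca
JUNB (chr19:12791337-12791365, plus strand): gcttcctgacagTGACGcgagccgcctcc

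Across 35116 windows of the same length, a full CRE was in 1.65%, a CRE with 1 free base in 6.87%, a CRE core in 21.2%, the AP-1 site TGANTCA in 6.57%, a CArG box in 1.16% and an EGR site in 8.41%. Among the 9 members a full CRE was in 1, a CRE with 1 free base in 3, a CRE core in 6, an AP-1 site in 0, a CArG box in 1 and an EGR site in 1. A full CRE is also counted as a CRE core and as one with 1 free base, and CREM was searched in more windows than the other members. These matches describe letters in the windows only.

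Levels are given as CPM, the reads of a gene scaled to the same total of assigned reads in every library, and libraries held 16594259 to 50539599 such reads. CPM is not divided by transcript length, so levels are compared within a gene and not between genes. Differences are on the log2(CPM + 1) scale with the standard error (SE) of a linear model over all 60 libraries, and a gene was called where its adjusted p was under 0.05 over 15263 genes. The sympathoadrenal markers of neuroblastoma PHOX2A, HAND2, GATA3, ISL1, TH, DBH, CHGA and STMN2 had reads in all 60 libraries, and PHOX2A was at 582 to 1882 CPM on days 6 to 15 and at 97.7 to 408 CPM on day 18. In contrast, blood markers summed to at most 0.24 CPM and endothelial markers to at most 0.362 CPM. The summed level of 8 basal epithelial markers was 1.85 to 6.83 CPM on days 6 to 15 and 77.9 to 126 CPM on day 18. There KRT5 had 28.1 to 44 CPM, KRT17 26.6 to 43.9, KRT14 13.78 to 25.25 and SFN 5.23 to 8.86 CPM. The rest of the list stayed low on day 18. EPCAM was at 2.19 to 3.99 CPM, and TP63, CDH1 and KRT15 at most at 0.836, 0.723 and 0.373 CPM. The names of all day 18 libraries begin with another prefix than the rest. What the prefix stands for is not given in the sources used here, and day 18 and the prefix cannot be told apart. Among all libraries 2, replicate 1 of day 18 without Pb and replicate 3 of day 6 at 10 µM, were low in long transcripts, with slopes on transcript length of -0.58 and -0.562 against -0.215 for the next library.

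Gene positions are those of RefSeq on GRCh38. NR4A2 (chr2:156324437-156332721), a receptor needed by dopamine neurons, was near absent. It had 36 reads in all, in 15 of 60 libraries, and its highest value was 0.279 CPM from 6 reads. Of these reads, 30 came from 11 of the 12 libraries of day 18. A count of 0 allows up to 3 reads, equal to 0.0594 to 0.181 CPM over the depths here, and only 3 day 18 libraries exceeded 3 reads. It was not tested, and the counts below concern the other 9 members.

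Without Pb, 6 of 9 members (FOS, FOSL2, JUNB, EGR1, NR4A1 and CREM) had their highest mean on day 12, where JUN had its lowest. Of these, NR4A1 was not called on day 12 against day 6, and FOSL2 libraries of days 9 and 12 overlapped. The share of all genes with their highest mean on day 12 is not given here. On day 12 against day 6, 7 of 9 members were higher and 1 was lower, 8 in all, where 56.2% of all genes were called in either direction, 21.6% higher and 34.6% lower. CREM rose 6.83-fold, EGR1 4.67-fold and FOS 3-fold, and JUN fell to 0.207 of its day 6 level. The median log2 change was 0.62 over the 9 members and -0.11 over all genes. The latter is -0.0065 after median-ratio rescaling, which also moved the share of rises among all called genes from 38.4% to 51.4%, and no member called on day 12 changed direction or lost its call under it.

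**Figure D1:**
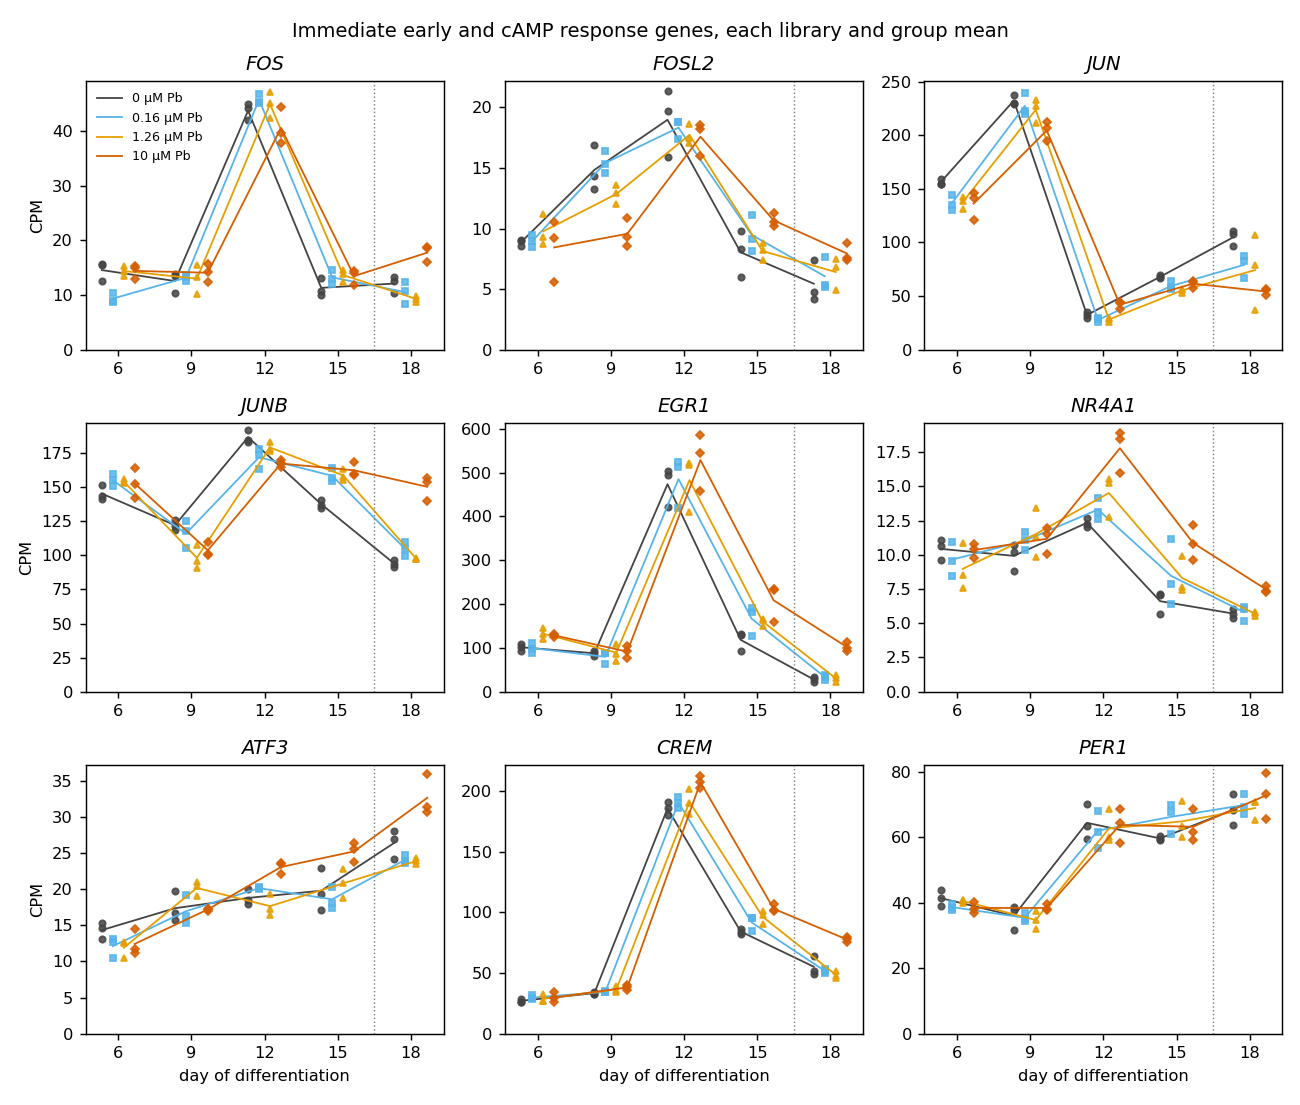
CPM of the 9 members (vertical axes, 1 panel per gene, from 0) against day of differentiation, with 1 symbol per library, offset sideways by dose, and lines through the means of 3 libraries. FOS, EGR1 and CREM show a peak on day 12 at all 4 doses, JUN is lowest there, and the 10 µM libraries stand apart from the others on day 18 for JUNB, EGR1 and CREM; the dotted line separates the 2 prefixes of the library names.

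Among the AP-1 genes, FOS (chr14:75278828-75282230), the classical transient partner of JUN, had 15.6, 15.5 and 12.6 CPM on day 6 and 45, 41.9 and 44.2 CPM on day 12 without Pb. It was at 10.4 to 13.8 CPM on day 9 and at 10.1 to 13.1 CPM on day 15, so its high level was seen on 1 of the 5 days only. The rise from day 9 to day 12 was 1.73 ± 0.12 (SE, adjusted p = 6.08e-17) and the fall from day 12 to day 15 was -1.87 ± 0.12 (adjusted p = 2.32e-17). The day 6, 9, 15 and 18 levels overlapped with their neighbours in order. In bulk RNA a change in the RNA of each cell and a change in the share of cells that express a gene cannot be told apart. For all members, the part of handling at harvest and of time since the last medium change in differences between days was not tested.

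FOSL2 (chr2:28392858-28417317), a FOS family member that lasts longer than FOS in many cells, had 9.06, 8.59 and 9.01 CPM on day 6, 14.3, 13.3 and 16.9 CPM on day 9 and 21.3, 19.7 and 15.9 CPM on day 12. All day 9 libraries were above all day 6 libraries (log2 change 0.67 ± 0.16, adjusted p = 0.00521), while days 9 and 12 overlapped. On day 18 it was at 4.76, 4.15 and 7.41 CPM, below day 6 by -0.65 ± 0.16 (adjusted p = 0.000414). The lower of these, replicates 1 and 2, had slopes on transcript length of -0.58 and -0.204, and replicate 3 had 0.0286. FOSL2 has a long transcript (6708 bases), and the part of length in this difference was not tested. The day 9 call was lost without replicate 3 of day 9 (adjusted p = 0.0555).

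JUN (chr1:58780791-58784047), the AP-1 subunit that can also pair with itself, was lowest on the day when FOS was highest. It had 160, 155 and 155 CPM on day 6, 237, 229 and 230 CPM on day 9, 29.7, 32.2 and 35.2 CPM on day 12, 69.9, 67.4 and 66.4 CPM on day 15 and 96.3, 111 and 108 CPM on day 18. No 2 neighbouring levels overlapped. The fall from day 9 to day 12 was -2.81 ± 0.15 (adjusted p = 3.24e-21), and JUN then rose by 1.05 ± 0.15 to day 15 (adjusted p = 2.01e-07) and by 0.62 ± 0.15 to day 18 (adjusted p = 0.00152). The smaller rise from day 6 to day 9, 0.57 ± 0.15 (adjusted p = 0.0155), was no longer called without replicate 2 of day 6 (adjusted p = 0.0559) or replicate 1 of day 9 (adjusted p = 0.0512).

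JUNB (chr19:12791486-12793315), a JUN family member that activates AP-1 targets less strongly than JUN, moved within a narrower range. Its libraries read 151, 143 and 141 CPM on day 6, 121, 126 and 119 CPM on day 9, 192, 184 and 185 CPM on day 12, 137, 135 and 141 CPM on day 15 and 96.3, 93.9 and 91.4 CPM on day 18. All neighbouring levels were separate, and the change on day 12 was 0.36 ± 0.05 (adjusted p = 2.41e-07) and on day 18 -0.62 ± 0.05 (adjusted p = 6.44e-14), both against day 6. JUN was low and JUNB high on day 12.

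EGR1 (chr5:138465479-138469303), a zinc finger factor induced by growth factors and neuronal activity, had 92.9, 109 and 102 CPM on day 6 and 421, 505 and 496 CPM on day 12. It was at 93.3, 129 and 132 CPM on day 15, overlapping day 6, and at 34.1, 28 and 21.5 CPM on day 18. All day 18 libraries were below all libraries of the other days without Pb. The changes against day 6 were 2.21 ± 0.18 on day 12 (adjusted p = 5.95e-15) and -1.85 ± 0.18 on day 18 (adjusted p = 1.14e-12).

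NR4A1 (chr12:52022832-52059503), an orphan nuclear receptor induced by many stimuli, was lower late in the course. It had 11.1, 10.6 and 9.63 CPM on day 6, 12.7, 12.3 and 12 CPM on day 12, 7.06, 7.13 and 5.66 CPM on day 15 and 5.68, 5.41 and 6.03 CPM on day 18. The day 12 difference was 0.22 ± 0.13 against day 6 (adjusted p = 0.132), and was called after median-ratio rescaling (0.33, adjusted p = 0.0241) and by edgeR (0.34, adjusted p = 0.0334). Against day 6 it was lower by -0.59 ± 0.13 on day 15 (adjusted p = 1e-04) and by -0.77 ± 0.13 on day 18 (adjusted p = 9.23e-07).

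ATF3 (chr1:212565407-212620777), an ATF/CREB factor induced by stress and nerve injury, rose across the course without a day 12 peak. Its values were 13.1, 14.6 and 15.3 CPM on day 6, 20, 18.4 and 17.9 CPM on day 12 and 26.9, 28.1 and 24.2 CPM on day 18. Days 9, 12 and 15 overlapped in order, and days 6 and 18 stood below and above them. The change on day 18 against day 6 was 0.84 ± 0.10 (adjusted p = 3.46e-10).

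CREM (chr10:35126846-35212958), whose transcripts encode activators and repressors at cAMP response elements, had the largest log2 rise of the 9 members on day 12. It had 28.6, 26.5 and 26.5 CPM on day 6, 33.1, 34.3 and 33 CPM on day 9, 191, 186 and 180 CPM on day 12, 86.2, 82.6 and 84.1 CPM on day 15 and 64.4, 51.9 and 49.3 CPM on day 18. No neighbouring levels overlapped, and the change on day 12 was 2.73 ± 0.08 against day 6 (adjusted p = 9.91e-33). It was still 0.99 ± 0.08 above day 6 on day 18 (adjusted p = 8.47e-16). The table counts the gene as a whole, so reads from its several starts are not separated.

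PER1 (chr17:8140472-8152404) had 41.4, 43.8 and 39 CPM on day 6, 37.8, 31.6 and 38.6 CPM on day 9, 70.2, 63.5 and 59.4 CPM on day 12 and 63.6, 73.1 and 68.3 CPM on day 18. It was higher than on day 6 from day 12 on, by 0.62 ± 0.08 on day 12 (adjusted p = 3.93e-09) and by 0.71 ± 0.08 on day 18 (adjusted p = 9.03e-11). From day 12 to day 15 its difference was -0.11 ± 0.08 (adjusted p = 0.307). Annotated exons of NR4A1 and CREM overlap a gene on the other strand and those of PER1 one on the same strand, and the strand setting of the counting is not given in the sources used here.

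**Figure D2:**
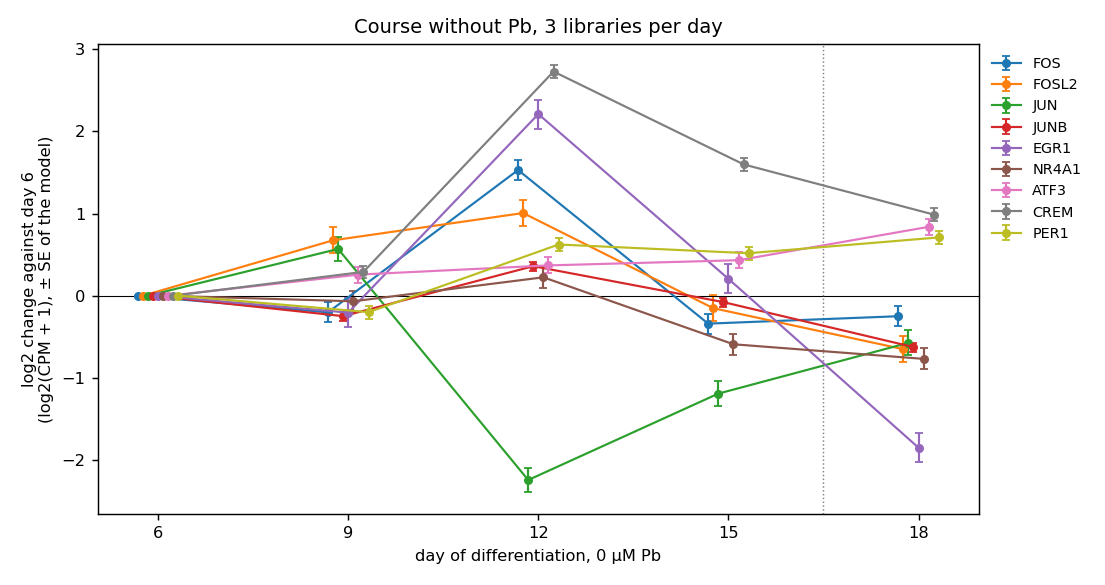
Log2 change against day 6 without Pb (vertical axis) by day (horizontal axis) for 9 members, with bars for the SE of the model and 3 libraries per day. CREM (2.73), EGR1 (2.21) and FOS (1.53) are highest on day 12, JUN (-2.24) is lowest there, and the dotted line separates the 2 prefixes of the library names.

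The other days without Pb gave different counts. On day 9 against day 6, 3 members were higher (FOSL2, JUN and CREM) and 1 lower (JUNB), where 5.14% of all genes were called (2.63% higher, 2.51% lower). On day 15 against day 6, 3 were higher (ATF3, CREM and PER1) and 3 lower (FOS, JUN and NR4A1), where 58.3% were called (26.2% higher, 32.2% lower). On day 18 against day 6, 3 were higher (ATF3, CREM and PER1) and 5 lower (FOSL2, JUN, JUNB, EGR1 and NR4A1), where 66.8% were called (32.1% higher, 34.7% lower). FOS was not called on that day (-0.25 ± 0.12, adjusted p = 0.0665) unless replicate 3 of day 6 or replicate 1 of day 18 was left out. The FOS call on day 15 (-0.34 ± 0.12, adjusted p = 0.0151) was lost after median-ratio rescaling (adjusted p = 0.0595) and without replicate 1 or 2 of either day, and the CREM call on day 9 (0.29 ± 0.08, adjusted p = 0.0128) without replicate 2 or 3 of day 6 or replicate 2 of day 9.

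Between neighbouring days, 7 members changed from day 9 to day 12, 6 up and JUN down, where 54.4% of all genes were called (20.7% higher, 33.7% lower). From day 12 to day 15, 6 fell and JUN rose, where 37% were called (22.3% higher, 14.8% lower). From day 15 to day 18, FOSL2, JUNB, EGR1 and CREM fell and JUN and ATF3 rose, where 33.3% were called (18.4% higher, 14.9% lower). The NR4A1 rise from day 9 to day 12 (0.29 ± 0.13, adjusted p = 0.0488) was lost without any 1 library other than replicate 2 of day 9, with adjusted p up to 0.202. The FOSL2 fall from day 15 to day 18 (-0.50 ± 0.16, adjusted p = 0.0142) was lost without replicate 1 or 2 of either day.

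Related genes on day 12 without Pb were counted next, from lists chosen with earlier results of these data known. Each count stands against the 56.2% of all genes called in this comparison (21.6% higher, 34.6% lower). Of 7 other AP-1, EGR and NR4A genes, 6 were higher and 0 lower, with a median log2 change of 1.35. NR4A3, the third NR4A receptor, went from 1.32 to 16.3 CPM (log2 change 2.89 ± 0.17), EGR2 from 0.26 to 4.84 CPM (2.22 ± 0.19), EGR3 from 0.354 to 4.41 CPM (2 ± 0.17) and FOSL1 from 1.76 to 6.03 CPM (1.35 ± 0.19). Within the NR4A family NR4A3 was 12.3-fold higher, NR4A1 was not called and NR4A2 was near 0.

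Of 13 other immediate early genes, 10 were tested, and 5 were higher and 2 lower. ARC, a synaptic protein, went from 8.42 to 29.9 CPM, KLF6 from 27.9 to 57.7 CPM and ZFP36, which destabilises mRNAs, from 18.9 to 38.1 CPM, while BTG2, an antiproliferative gene, went from 50.3 to 21.8 CPM. IER2 and IER3 were the other two that rose and CCN1 was also lower. All 13 components of the cAMP and CREB pathway were tested, and 0 were higher and 8 lower on day 12, where 34.6% of all genes were lower. Among these CREB1 fell by 0.46 on the log2 scale, CREBBP by 0.41, CRTC2 by 0.40 and the kinase subunit PRKAR2B by 0.95. The list's median log2 change was -0.18 against -0.11 over all genes, and after median-ratio rescaling 2 were higher and 4 lower, with a median of -0.07.

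Of 11 other CREB targets, 10 were tested, and 6 were higher and 3 lower. VGF, a secreted neuropeptide precursor, went from 1223 to 10972 CPM (log2 change 3.16 ± 0.21) and SCG2, a granin of dense core vesicles, from 477 to 1741 CPM (1.87 ± 0.05). PDE4D, which degrades cAMP, went from 19.7 to 41.4 CPM, and BDNF, a neurotrophin, from 5.99 to 3.31 CPM. PER2 and DUSP1 were also lower. Of 6 SRF and ternary complex factors, 1 was higher, ELK3 (25.3 to 41 CPM), and 2 lower, ELK1 (108 to 77.8 CPM) and MRTFA (45.6 to 37.9 CPM).

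With 10 µM Pb, the members differed from 0 µM mainly on days 15 and 18. On day 18, 8 of 9 differed, 7 higher and JUN lower, where 28.9% of all genes were called, 12.1% higher and 16.9% lower. The median log2 difference was 0.50 over the 9 members and -0.05 over all genes. EGR1 was 3.67-fold higher, JUNB 1.6-fold, FOS 1.47-fold, FOSL2 1.46-fold, CREM 1.41-fold, NR4A1 1.31-fold and ATF3 1.24-fold, and JUN was at 0.517 of its level without Pb. After median-ratio rescaling the share of higher genes among all calls went from 41.6% to 56.9%, and the 8 members kept their calls and directions. Within day 18 all library names share 1 prefix, and the basal epithelial markers summed to 82.5 to 126 CPM without Pb and 77.9 to 98.1 CPM at 10 µM. Of the 8 sympathoadrenal markers, 0 were higher and 4 lower at 10 µM (HAND2, GATA3, ISL1 and STMN2), with a median log2 difference of -0.28. The part of either marker list in the result was not tested.

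**Figure D3:**
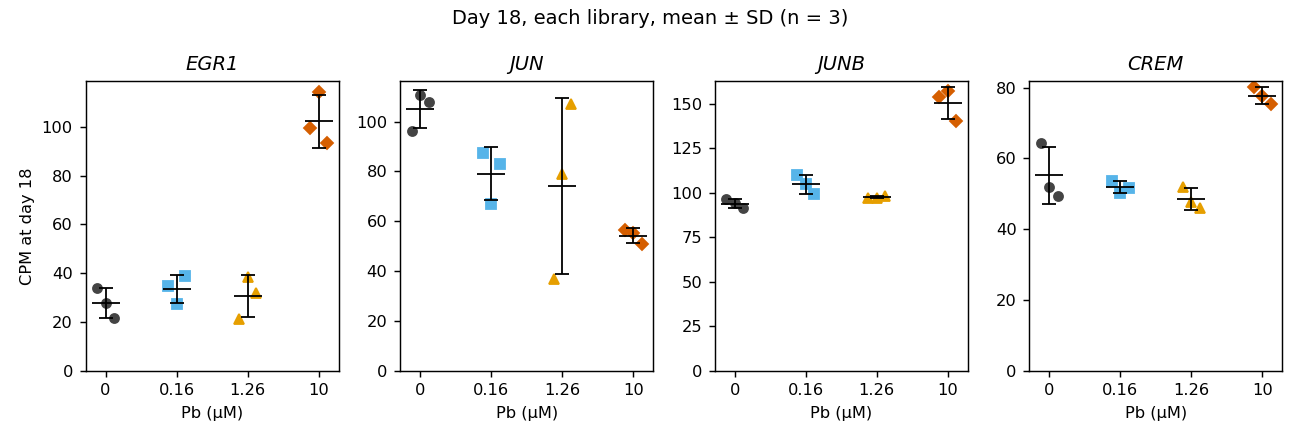
CPM on day 18 (vertical axes, from 0) by Pb dose (horizontal axes) for EGR1, JUN, JUNB and CREM, with 1 symbol per library and the mean ± SD of 3 libraries. All 10 µM libraries lie above all 0 µM libraries for EGR1, JUNB and CREM and below them for JUN, and 1 library at 1.26 µM has a JUN value of 36.9 CPM against 78.9 and 107 for the other two.

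EGR1 on day 18 had 34.1, 28 and 21.5 CPM without Pb and 99.3, 114 and 93.2 CPM at 10 µM. Values of 34.6, 27.3 and 38.7 CPM at 0.16 µM and of 21.3, 38.3 and 32 CPM at 1.26 µM overlapped with 0 µM. The difference at 10 µM was 1.86 ± 0.18 (adjusted p = 1.25e-11), and 10 µM libraries on day 18 were at a level that the libraries without Pb had on days 6 and 15 (92.9 to 132 CPM).

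JUNB had 96.3, 93.9 and 91.4 CPM on day 18 without Pb and 154, 157 and 140 CPM at 10 µM, a difference of 0.67 ± 0.05 (adjusted p = 9.55e-14). At 10 µM it read 167, 165 and 170 CPM on day 12 and 160, 159 and 168 CPM on day 15, so its mean was 167 CPM on day 12 and 150 CPM on day 18, against 187 and 93.9 CPM without Pb. JUNB was lower than without Pb on day 9 (-0.23 ± 0.05, adjusted p = 0.0101) and higher on day 15 (0.24 ± 0.05, adjusted p = 0.00346).

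CREM had 64.4, 51.9 and 49.3 CPM on day 18 without Pb and 80.1, 77.7 and 75.4 CPM at 10 µM, with no overlap (0.50 ± 0.08, adjusted p = 1.43e-06). The highest of the 3 libraries without Pb is the one low in long transcripts. FOS had 13.3, 12.6 and 10.4 CPM without Pb and 18.5, 16 and 18.8 CPM at 10 µM (0.52 ± 0.12, adjusted p = 0.000951).

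JUN was the member that fell with Pb on day 18. It had 96.3, 111 and 108 CPM without Pb, 87.6, 67.1 and 82.9 CPM at 0.16 µM, 36.9, 78.9 and 107 CPM at 1.26 µM and 56.5, 55.4 and 50.8 CPM at 10 µM. The 10 µM difference was -0.94 ± 0.15 (adjusted p = 4.32e-06), and all libraries at 10 µM were below all without Pb. At 1.26 µM the difference was -0.62 ± 0.15 (adjusted p = 0.00605) with overlapping libraries, and it was -0.19 (adjusted p = 0.202) without the library at 36.9 CPM. At 0.16 µM it was -0.41 ± 0.15 (adjusted p = 0.0889) with all libraries below 0 µM, and the adjusted p was 0.0101 without that same library, which enters the shared error.

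FOSL2, NR4A1 and ATF3 passed with smaller margins on day 18. FOSL2 had 4.76, 4.15 and 7.41 CPM without Pb and 8.81, 7.43 and 7.6 CPM at 10 µM (0.50 ± 0.16, adjusted p = 0.0147), ATF3 26.9, 28.1 and 24.2 CPM and 35.9, 31.3 and 30.7 CPM (0.29 ± 0.10, adjusted p = 0.0197), and NR4A1 5.68, 5.41 and 6.03 CPM and 7.39, 7.32 and 7.69 CPM (0.34 ± 0.13, adjusted p = 0.0406). The longest coding transcript of FOSL2 has 6708 bases, against a median of 3459 over the genes kept. Its lower libraries without Pb, replicates 1 and 2, had slopes on transcript length of -0.58 and -0.204, and replicate 3 had 0.0286. The part of transcript length in the FOSL2 difference was not tested. All 3 calls, of FOSL2, ATF3 and NR4A1, were lost in a fit of the 2 groups alone, with adjusted p of 0.122, 0.109 and 0.126. The NR4A1 call was also lost without the 2 libraries low in long transcripts (adjusted p = 0.0937) and without any 1 of 5 of the 6 libraries, replicate 3 without Pb being the exception; the FOSL2 call was lost without any 1 of 3 libraries (replicates 1 and 2 without Pb, replicate 1 at 10 µM) and the ATF3 call without any 1 of 2 (replicate 3 without Pb, replicate 1 at 10 µM).

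On day 15 at 10 µM, 5 of 9 members were higher and 0 lower, where 5.68% of all genes were called, 2.5% higher and 3.18% lower. EGR1 had 93.3, 129 and 132 CPM without Pb and 235, 232 and 159 CPM at 10 µM (0.81 ± 0.18, adjusted p = 0.00199), and NR4A1 7.06, 7.13 and 5.66 CPM and 9.62, 12.2 and 10.8 CPM (0.64 ± 0.13, adjusted p = 0.000588). JUNB had 137, 135 and 141 CPM without Pb and 160, 159 and 168 CPM at 10 µM. For each of the 5 called members all libraries at 10 µM were above all without Pb. This rests on the same values as the calls, and the share of all genes separated in this way is not given here.

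CREM (0.29 ± 0.08, adjusted p = 0.0131) and ATF3 (0.34 ± 0.10, adjusted p = 0.0253) were the weaker calls of day 15. After median-ratio rescaling, which moved the share of higher genes among all calls from 43.9% to 28.7%, CREM had an adjusted p of 0.0643 and ATF3 of 0.0644, and the other 3 members kept their calls. Leaving out 1 library ended the CREM call in 3 of 6 cases (replicates 2 and 3 without Pb, replicate 1 at 10 µM) and the ATF3 call in 4 of 6 (replicates 1 and 2 without Pb, replicates 2 and 3 at 10 µM).

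On day 12 at 10 µM, at the peak, only NR4A1 was called, where 5.37% of all genes were called, 3.03% higher and 2.34% lower. It had 12.7, 12.3 and 12 CPM without Pb and 18.4, 18.9 and 16 CPM at 10 µM (0.49 ± 0.13, adjusted p = 0.0137), with no overlap. The call was lost without replicate 3 of 0 µM or replicates 1 or 2 of 10 µM (adjusted p up to 0.082). JUN had 29.7, 32.2 and 35.2 CPM without Pb and 43.2, 38.4 and 44.2 CPM at 10 µM, a difference of 0.37 ± 0.15 (adjusted p = 0.164), and it was called at adjusted p = 0.00427 once the day 18 library low in JUN, which enters the shared error, was left out. That difference on day 12 has the opposite sign to the one on day 18. FOS, EGR1 and CREM had differences of -0.11 ± 0.12, 0.16 ± 0.18 and 0.16 ± 0.08 there.

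On day 9, 2 members were lower at 10 µM, FOSL2 and JUNB, where 1.41% of all genes were called, 0.446% higher and 0.963% lower. FOSL2 had 14.3, 13.3 and 16.9 CPM without Pb and 9.26, 8.57 and 10.9 CPM at 10 µM (-0.58 ± 0.16, adjusted p = 0.0483), and JUNB 121, 126 and 119 CPM and 101, 101 and 110 CPM. Neither pair of groups overlapped. The FOSL2 call was lost without any 1 of the 6 libraries (adjusted p from 0.0505 to 0.318) and the JUNB call without replicate 2 of 0 µM or replicates 1 or 2 of 10 µM (adjusted p up to 0.0978).

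On day 6, after 1 day of Pb, limma called 0 of 9 members at 10 µM, where 0.655% of all genes were called (0.295% higher, 0.36% lower), and 0 had an unadjusted p under 0.05. edgeR also called 0. EGR1 had the largest difference there, 0.34 ± 0.18 (adjusted p = 0.364), with 92.9, 109 and 102 CPM without Pb and 125, 130 and 131 CPM at 10 µM.

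Averaged over the 5 days, with each day compared within itself, 7 members differed at 10 µM, 6 higher and JUN lower, where 15.1% of all genes were called, 6.93% higher and 8.13% lower. EGR1 was at 0.64 ± 0.08 (adjusted p = 1.6e-08), NR4A1 at 0.32 ± 0.06 (adjusted p = 2.69e-05), CREM at 0.25 ± 0.03 (adjusted p = 1.46e-07) and JUN at -0.22 ± 0.07 (adjusted p = 0.0192). Without day 18, 3 of the 7 remained, EGR1, NR4A1 and CREM, and JUNB went from 0.12 ± 0.02 (adjusted p = 0.000335) to -0.02 (adjusted p = 0.719). FOS (0.16 ± 0.05, adjusted p = 0.0386) lost its call in 15 of 30 fits that left out 1 library and in a fit of the 2 doses alone (adjusted p = 0.0571).

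The size of the 10 µM difference changed with day for 8 of 9 members by a moderated F test, where 21.7% of all genes passed. edgeR called 7, without CREM (adjusted p = 0.0606), where it called 2815 of all 15263 genes. JUNB (adjusted p = 2.92e-12), EGR1 (adjusted p = 8.12e-07) and JUN (adjusted p = 0.000298) had the smallest values. Over dose steps from 0 to 10 µM, 7 members had a called slope within days, where 15.7% of all genes did, 7.26% upward and 8.39% downward. EGR1 gained 0.20 ± 0.03 per step (adjusted p = 2.16e-08), CREM 0.08 ± 0.01, NR4A1 0.10 ± 0.02 and JUN changed by -0.07 ± 0.02. Without day 18 the slopes of JUN (adjusted p = 0.461), FOS (0.262), ATF3 (0.164) and JUNB (0.5, with the sign reversed) were not called. The JUN slope was also not called with dose on a linear scale in µM (adjusted p = 0.39). A slope can pass where only 10 µM differs. As the mean over days, 0 members were called at 0.16 µM and 1, JUN, at 1.26 µM.

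PER1 was not called at any dose on any day. At 10 µM its mean difference was 0.03 ± 0.04 on the log2 scale, with a 95% interval from -0.04 to 0.10 (adjusted p = 0.671). The test of Pb by day gave an adjusted p of 0.476.

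The middle dose moved few members. Over 5 days and 9 members, 3 of 45 tests at 1.26 µM passed. An unadjusted p under 0.05 was found in 12, and the share of all genes at that threshold is not given here. JUNB was lower on day 9, with 108, 96.2 and 90.8 CPM against 121, 126 and 119 CPM without Pb (-0.31 ± 0.05, adjusted p = 0.000793), where 0.4% of all genes were called. On days 6 and 12 the 1.26 µM dose gave 0 calls among the members, where 0% and 0.0459% of all genes were called. JUNB was higher on day 15, with 155, 157 and 163 CPM against 137, 135 and 141 CPM (0.20 ± 0.05, adjusted p = 0.0434), where 1.26% were called, and that call was lost without any 1 of the 6 libraries and by edgeR (adjusted p = 0.156). JUN on day 18, given above, was the third call, where 12.4% were called. FOS on day 18 was at -0.34 ± 0.12 (adjusted p = 0.0534), and was called after median-ratio rescaling (adjusted p = 0.0498) and by edgeR (adjusted p = 0.0298). As the mean over days JUN was lower at 1.26 µM by -0.27 ± 0.07 (adjusted p = 0.0138), where 3.84% of all genes were called, and not in a fit of the 2 doses alone (adjusted p = 0.0837).

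At the lowest dose, 0.16 µM, limma called 0 of 45 tests and edgeR called 0. An unadjusted p under 0.05 was found in 8 of the 45, and the share of all genes at that threshold is not given here. By adjusted p, 0% to 6.34% of all genes were called on a single day. The nearest was FOS on day 6, with 10.3, 8.8 and 8.9 CPM against 15.6, 15.5 and 12.6 CPM without Pb, all below, at -0.59 ± 0.12 (adjusted p = 0.0585). FOS was called there without replicate 3 of 0 µM or replicate 1 of 0.16 µM, and with no filter on low values (adjusted p = 0.0476). At 1.26 and 10 µM on day 6 the FOS differences were -0.01 ± 0.12 at both. As the mean over days limma called 0 of 9 members at 0.16 µM and edgeR 0, where 0.124% of all genes were called by adjusted p. In that mean 2 members had an unadjusted p under 0.05, without a share of all genes at that threshold. JUN was at -0.21 ± 0.07 in that mean (adjusted p = 0.314), and at an adjusted p of 0.00285 without the day 18 library low in JUN.

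Related genes at 10 µM were counted as the mean over days, where 15.1% of all genes were called (6.93% higher, 8.13% lower). Of 7 other AP-1, EGR and NR4A genes, 6 were higher and 0 lower, with a median log2 difference of 0.33 over the list and 0.00 over all genes. EGR4 was at 0.36 ± 0.08, FOSL1 at 0.33 ± 0.09, EGR2 at 0.33 ± 0.09 and FOSB, a relative of FOS, at 0.33 ± 0.09. These are low genes, and edgeR did not call EGR4, EGR2 or FOSB in this comparison (adjusted p of 1, 0.279 and 0.0565), nor did the fit without day 18 call any of the 4. Over the whole list edgeR called 1 of 7 as higher, and 4 had an unadjusted p under 0.05 by that tool.

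Among 10 other immediate early genes tested, 3 were higher and 1 lower. ARC was at 0.49 ± 0.07 (adjusted p = 1.97e-07), with 6.35 CPM without Pb and 15.2 CPM at 10 µM on day 18. IER2 was at 0.18 ± 0.05 and ZFP36 at 0.15 ± 0.05, the latter not called in 9 of 30 fits that left out 1 library. CCN1, a matrix protein gene driven by serum response factor and YAP, was lower at -0.68 ± 0.09 (adjusted p = 1.98e-07). Of 13 cAMP and CREB pathway components limma called 0, with 2 at an unadjusted p under 0.05, and edgeR called 0. Of 6 SRF and ternary complex factors limma called 0, with 1 at an unadjusted p under 0.05, and edgeR called 1 as lower.

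Of 10 other CREB targets tested, 2 were higher, SCG2 and RGS2, and 1 lower, PER2. SCG2 was at 0.35 ± 0.02 (adjusted p = 1.82e-17), and on day 18 it had a mean of 710 CPM without Pb and 1428 CPM at 10 µM. RGS2, a regulator of G protein signalling, was at 0.11 ± 0.03 (adjusted p = 0.00285), which fell to 0.03 without day 18 (adjusted p = 0.574). PER2 was at -0.17 ± 0.06 (adjusted p = 0.0479) and lost its call in 23 of 30 fits that left out 1 library.

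The members differed in how tightly the dishes agreed. The residual SD on the log2 scale was 0.0633 for JUNB and 0.0913 for CREM, and 0.231 for EGR1, 0.201 for FOSL2 and 0.196 for JUN, against a median of 0.149 over all genes tested. Among the 1000 genes nearest in level, EGR1 lay at the 94.3 percentile of residual SD and JUNB at the 14.7 percentile. The JUN value holds the day 18 library at 36.9 CPM.

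Over the 20 group means, which share days and libraries, Pearson's r was 0.85 between FOS and EGR1, 0.78 between FOS and CREM and -0.92 between JUN and CREM. For deviations of the 60 libraries from their group means the same pairs had r of 0.20, 0.04 and -0.17. The genes with the most similar group means among 12396 compared were SPCS2 and KDELR2 for FOS (r = 0.98 and 0.97), WSB2 and HPCAL1 for EGR1 (0.98 and 0.98), MYDGF and NUCB2 for CREM (0.99 and 0.99), BTG1 and YPEL3 for JUN (0.99 and 0.99) and VASP for PER1 (0.99). For JUNB the nearest gene, GMDS, was at 0.90. These values describe the shared course over days.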

How the data were processed

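RNA was sequenced from 60 libraries of SH-SY5Y cells, 3 dishes (15 cm) for each of 5 days and 4 Pb doses. Per the submitters' processing notes, STAR and featureCounts were used with GRCh38, beside FastQC and MultiQC; the annotation and strand setting of the counting are not given in the sources used here. The authors deposited 1 table of CPM values for 37334 genes, of which 8794 had no read. Whole reads were recovered from the CPM steps, with 100% of values whole within 0.01 read, and gave 16594259 to 50539599 reads per library, so the counting error of low genes such as NR4A2 is largest. A floor of 3 reads equals 0.0594 to 0.181 CPM.

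The 15263 genes that reached 1 CPM in 3 or more libraries were tested on log2(CPM + 1) with limma 3.58.1 in R 4.3.3, with 1 mean per group, a trended prior and Benjamini-Hochberg adjustment, two-sided. edgeR 4.0.16 (quasi-likelihood, TMM) on the recovered reads was an alternative. Other alternatives were a pseudocount of 0.25, no filter, median-ratio rescaling, only the groups compared, a replicate block, no day 18, dose linear in µM, and leaving out libraries. The scripts were tested on simulated data. Counts at an unadjusted p, and counts from fits without day 18, are given without the share of all genes. Nothing in the labels says that dishes came from separate cultures, so p-values measure the spread between dishes, which may be technical.

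The members and lists were chosen with earlier results of these data known. All members were described, and of each list up to 4 genes with the smallest p past the threshold were named for day 12 against day 6 and for 10 µM as the mean over days. Further genes of lists with few calls were named after their values were seen. For likeness the 3 genes of highest Pearson's r over 20 group means were found among genes reaching 5 CPM. Promoter windows came from RefSeq (GRCh38.p14). Of the 10 members, 9 matched. Of the sympathoadrenal marker list, 1 gene is not reported here.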

Additional observations from a re-analysis of the deposited data

Results flagged for a closer look

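The 10 µM difference from 0 µM depended on the day for 8 members by a test of that difference itself (limma's moderated F test over 5 days, adjusted over 15263 genes). The adjusted p was 2.92e-12 for JUNB, 8.12e-07 for EGR1, 0.000298 for JUN, 0.00168 for FOSL2, 0.00782 for ATF3, 0.0331 for NR4A1, 0.0372 for FOS and 0.0394 for CREM. JUNB was lower at 10 µM on day 9 (-0.23) and higher on day 18 (0.67), and FOSL2 was lower on day 9 (-0.58) and higher on day 18 (0.50), on the log2 scale. JUN was at 0.37 on day 12, without a call, and at -0.94 on day 18. Without day 18 the adjusted p was 0.0965 for EGR1, 0.0783 for NR4A1, 0.413 for FOS and 0.631 for CREM, and 4 members still passed. Leaving out 1 library ended the call in 9 of 30 cases for FOS, 8 of 30 for CREM and 5 of 30 for NR4A1. CREM was not called by edgeR (adjusted p = 0.0606), FOS (0.0761) and CREM (0.103) were not called in a fit of the groups compared, and with no filter FOS (0.0647), NR4A1 (0.0577) and CREM (0.061) were not. NR4A1 was also lost without the 2 libraries low in long transcripts (0.0506). On day 18 basal epithelial markers summed to 77.9 to 126 CPM, and its libraries carry another name prefix than all other days, so day and prefix cannot be told apart.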

How the results depend on the processing

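Outside the fits that left out 1 library, 136 of the counts of called members stayed within 1.5 times and 19 did not. With only the groups compared, calls at 10 µM fell to 0 on day 9, 3 on day 15 and 5 on day 18, those at 1.26 µM to 0 over the 5 days and 0 for the mean, while the mean at 0.16 µM gained 1 (JUN). On day 9, 1 call at 10 µM was left with a pseudocount of 0.25, no filter or the replicate block. Median-ratio rescaling left 3 on day 15. With no filter the test by day gave 5 calls and 0.16 µM 1, which was also 1 without the 2 libraries low in long transcripts. Without day 18 the mean and the slope at 10 µM gave 3 calls and the test by day 4, and JUNB turned to -0.021 for the mean and -0.0109 for the slope. An alternative chosen after seeing the data left out the day 18 library low in JUN: calls then numbered 2 at 10 µM on day 12 and 1 at 0.16 µM, both within days and for the mean.

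Leaving out each library in turn gave 2 to 4 calls for day 9 against day 6, 8 to 8 for day 12, 5 to 6 for day 15 and 8 to 9 for day 18. The steps gave 6 to 7 (day 9 to 12), 7 to 7 (day 12 to 15) and 5 to 6 (day 15 to 18). At 10 µM they numbered 0 to 0, 0 to 1, 0 to 1, 3 to 4 and 5 to 7 from day 6 to day 18, 6 to 7 for the mean, 7 to 7 for the slope and 5 to 8 by day. Calls summed over days were 0 to 1 at 0.16 µM and 2 to 5 at 1.26 µM, and the means gave 0 to 0 and 1 to 1. Of values not called, FOS and CREM at 1.26 µM on day 18 became called without replicate 3 of 0 µM, FOSL2 from day 9 to 12 without replicate 3 of either, and PER1 from day 15 to 18 without replicate 1 of day 18. FOSL2 from day 9 to 12 was also called after rescaling (adjusted p = 0.0163), by edgeR (0.0164) and with the 2 libraries low in long transcripts left out (0.0461), and PER1 from day 15 to 18 without those 2 (0.0332) and with the replicate block (0.0487).

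Over all genes, deviations of same-numbered samples of a day had r from -0.36 to 0.53 over 90 pairs, 23 of them (25.6%) over 0.1. Samples with other numbers had r from -0.47 to 0.50 over 180 pairs, 41 of them (22.8%) over 0.1. Replicate numbers thus gave no clear pairing over all genes, and pairing in single members was not tested. With the replicate block, calls from day 15 to 18 were 7 in place of 6, at 1.26 µM 2 in place of 3. Depth limits NR4A2 and the low relatives EGR2, EGR4 and FOSB.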
